A study of Mus musculus with 37 samples.

Results

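Lung RNA of B6 fetuses was set against lung RNA of A/J fetuses at E16.5, where E stands for embryonic day. The members were every array labelled with either strain at that age, 3 of B6 and 3 of A/J, out of 37 arrays in the series. The study profiled whole lung from both inbred strains across late gestation up to birth, because the strains differ in the length of gestation. B6 (C57BL/6J) and A/J fetuses were wild-type as far as the labels state, no treatment was named for either group, and gestational age came from timed matings followed by video. Each replicate was 1 litter, with right lungs of 3 males pooled, and each strain had 3 litters. Values were log2 signals from a whole-transcript microarray. All measurements here are of whole lung, in which fewer cells of a type and less RNA per cell cannot be told apart. The array's probes follow the B6 reference sequence, so a base difference of A/J under a probe and a true RNA difference cannot be told apart for a single probe set.

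At this age the mouse lung passes from the branching of airways to the formation of sacs that will hold air. Epithelial cells at the tips of the airways start to become type I cells, which carry out gas exchange, and type II cells, which make surfactant, the mixture of lipid and protein that keeps the sacs open at birth. In the airways, secretory club cells and ciliated cells appear, while cell division slows across the organ.

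Signals of 21789 probe sets with exactly 1 gene symbol, standing for 19938 genes, were compared with limma. A probe set was called when its adjusted p (Benjamini-Hochberg over all 21789) was under 0.05 and its fold was at least 1.5. Medians of the 37 arrays lay between 6.34 and 6.54 on the log2 scale. The surfactant protein C mRNA Sftpc, which marks the distal lung epithelium, read 13.52 to 13.70 in the B6 replicates and 13.42 to 13.56 in the A/J replicates, near the top of the scale in all 6.

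A/J replicate 1 stood apart from the other A/J replicates. Its place was measured on 65 probe sets (63 genes) that differed between the strains in 1 direction at E15.5, E17.5 and E18.5 alike, without using any E16.5 array. On a linear scale, with 0 for the A/J mean and 1 for the B6 mean of E15.5 and E17.5, the B6 replicates had medians of at least 0.952. A/J replicate 1 had a median of 0.402, while A/J replicates 2 and 3 had medians of -0.0164 and -0.0136. The intermediate place held for most but not all of the genome. On the 9 chromosomes other than 7 with at least 3 such probe sets (45 in all), the median of A/J replicate 1 lay between 0.194 and 0.632. The 0.194 was on chromosome 4, where 1 of 4 probe sets lay above 0.25. On chromosome 7 the median was 0.016 over 11 probe sets, and 10 of the 11 lay under 0.25, against 9 of 54 elsewhere. Among the 10 is Hbb-y, where B6 replicates 2 and 3 also lay under 0.25, at 0.0945 and 0.199. Polr3e, which encodes a subunit of RNA polymerase III, and Tbcb, a tubulin-folding cofactor, both on chromosome 7, sat at -0.0407 and 0.0198 in A/J replicate 1. The Polr3e value is from its dimmer probe set, and the brighter one differed by -0.16 between the strains, not called. The 1 exception on chromosome 7 was Zim1, an imprinted zinc-finger gene, at 0.76. On the X chromosome, the basement membrane collagen gene Col4a6 read 7.15 to 7.32 in B6 replicates and 7.46 in A/J replicate 1, against 5.75 and 5.59 in A/J replicates 2 and 3, so that replicate read above every B6 replicate. The cause of these values was not tested. Counts and the differences of called genes are given with all replicates and, as a second value, without A/J replicate 1.

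**Figure D1:**
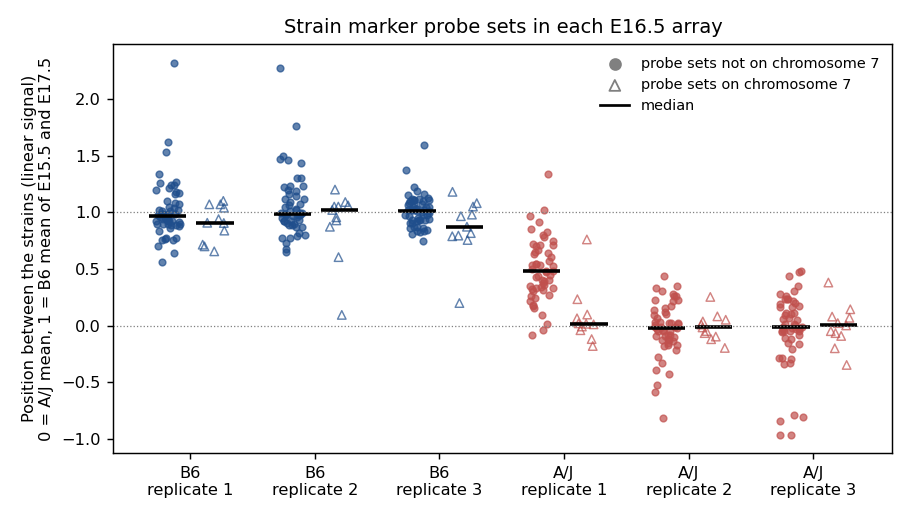
Position of the 6 E16.5 arrays between the strains (y axis, linear signal scaled to 0 at the A/J mean and 1 at the B6 mean of E15.5 and E17.5) for 65 strain marker probe sets. Circles are the 54 probe sets not on chromosome 7, triangles the 11 on chromosome 7, and bars medians. Of the circles of A/J replicate 1, 45 of 54 lie at 0.25 or above, up to 1.34 for Col4a6, and 9 below, while its triangles, except Zim1 at 0.76, lie under 0.25.

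B6 replicate 1 held more mRNA of liver genes than the other E16.5 arrays. Albumin mRNA (Alb) read 10.52 in B6 replicate 1, 6.45 and 6.20 in B6 replicates 2 and 3, and 5.90 to 6.16 in A/J replicates. The mean over the 11 measured liver markers was 7.29 in B6 replicate 1, 5.87 and 5.79 in the other B6 replicates, and 5.48 to 5.57 in A/J. Some arrays of the neighbouring ages had high Alb as well. It read 11.49 in B6 E15.5 replicate 1, 9.89 in A/J E15.5 replicate 1 and 8.90 in B6 E17.5 replicate 2. All other arrays of E15.5 and E17.5 read 5.47 to 6.52. Of the 11 liver markers, Trf (transferrin) was called. Unlike Alb, Trf read 9.56, 9.30 and 9.02 in B6 replicates 1 to 3, and 8.66, 7.86 and 7.80 in A/J. Its difference was 0.91 at E17.5 and 1.265 at E18.5. The median difference of the list was 0.85 without A/J replicate 1 and 0.19 without B6 replicate 1 as well.

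With all replicates, 257 probe sets of 234 genes were called, 1.18% of those tested. Of these, 128 (0.587%) were higher and 129 (0.592%) lower in B6. Without A/J replicate 1, 412 probe sets of 372 genes were called (1.89%), 222 (1.02%) higher and 190 (0.872%) lower. Both fits called 241 of the same probe sets, with none of opposite sign. Leaving out an array that lies nearer to B6 widens most differences by construction, and 398 of the 412 differences were smaller with that array. The strains did not overlap for 243 of the 257 and for all 412, where 36.5% of all probe sets did not overlap with 3 A/J replicates and 48.2% with 2. The median difference over all probe sets was 0 with all replicates and 0.0033 without A/J replicate 1. The count also turned on A/J replicate 3, since 155 probe sets were called without it, and 207 without A/J replicates 1 and 3. The count was 262 without B6 replicate 1.

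Many of the called probe sets also differed at other ages. Strain calls made up 0.863% of all probe sets at E15.5, 1.75% at E17.5 and, on the last day compared, E18.5, 4.05%. Of the 412, 127 were called in the same direction at E15.5 (30.8% of the 412 and 65.8% of the E15.5 calls of the same fit). At E17.5 it was 154 (37.4% and 40.5%), and at E18.5 it was 166 (40.3% and 18.8%). A total of 61 probe sets of 59 genes were called at all 4 ages, and 172 (41.7%) at E16.5 alone. With all replicates, 52 of 257 were called at all 4 ages and 86 (33.5%) at E16.5 alone. An absence from the calls at another age was not itself a test of a difference between ages.

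Among genes with known differences between these strains, Dysf, the muscle membrane repair gene in which A/J carries an inserted element, read 7.44, 7.51 and 7.59 in B6 replicates 1 to 3 and 6.98, 5.90 and 5.99 in A/J replicates 1 to 3. All B6 replicates were higher than all A/J replicates, with A/J replicate 1 in between. The difference was 1.22 ± 0.17 (SE, limma adjusted p = 1.61e-05), and 1.57 ± 0.12 without A/J replicate 1. Nnt, the mitochondrial transhydrogenase gene that is partly deleted in C57BL/6J, read 9.35, 9.22 and 9.23 in B6 and 9.99, 10.38 and 10.27 in A/J, a difference of -0.95 ± 0.08 (adjusted p = 7.22e-09, -1.06 without A/J replicate 1). Glo1, which encodes glyoxalase 1 and is duplicated in A/J, read 8.94, 8.92 and 8.82 in B6 and 10.29, 10.79 and 10.61 in A/J. It had the smallest adjusted p of the genes given values here (1.86e-13, difference -1.67 ± 0.09, and -1.81 without A/J replicate 1). Hc, the gene of complement C5, which A/J lacks as a protein, read 6.42, 7.02 and 6.34 in B6 and 5.70, 5.35 and 5.67 in A/J (1.02 ± 0.17, adjusted p = 0.000256, 1.08 without A/J replicate 1). Of the 17 measured genes of this list, 3 were higher and 3 lower in B6 with all replicates, and 5 and 3 without A/J replicate 1. Ahr, the aryl hydrocarbon receptor, and Entpd4, a Golgi nucleotidase, were added by leaving out that array. The list was drawn up from known strain differences.

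Other genes with a large difference held it at neighbouring ages as well. Trim12a, a member of the antiviral Trim5 gene group, read 5.96, 5.94 and 5.67 in B6 and 3.76, 3.84 and 4.13 in A/J (1.95 ± 0.13, adjusted p = 2.42e-11, 1.87 without A/J replicate 1), and A/J replicate 1 had the lowest value. Its difference was 1.60 at E15.5 and 2.58 at E17.5. Opcml, an opioid-binding cell adhesion gene, read 7.91, 8.44 and 8.09 in B6 and 7.63, 5.89 and 6.33 in A/J, with A/J replicate 1 close to B6. Its difference was 1.53 ± 0.26 (adjusted p = 0.000433), and 2.04 ± 0.21 without that array. Ly6e, a membrane-anchored antigen of immature thymocytes, read 10.34, 10.64 and 10.35 in B6 and 9.64, 8.60 and 8.80 in A/J (1.43 ± 0.18, adjusted p = 7.59e-06, 1.74 without A/J replicate 1).

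Among the genes lower in B6, Cytl1, a secreted factor first found in cartilage and blood progenitors, read 8.19, 8.18 and 8.36 in B6 and 10.02, 10.68 and 10.78 in A/J. Its difference of -2.25 ± 0.18 (adjusted p = 5.47e-10, -2.49 without A/J replicate 1) was close to the -2.33 at E15.5 and the -1.95 at E17.5. Cym, the gene of the milk-clotting protease chymosin, read 8.40, 8.07 and 8.24 in B6 and 9.98, 10.65 and 10.78 in A/J (-2.23 ± 0.23, adjusted p = 1.64e-07, -2.48 without A/J replicate 1). Unlike Cytl1, the difference of Cym was -0.78 at E15.5 and -2.13 at E17.5. The change of the Cym difference between E15.5 and E16.5 was tested and called without A/J replicate 1. Rps3a1, a ribosomal protein gene with many near-identical copies, Gatm, an enzyme of creatine synthesis, and Tbcb had differences of -1.69, -1.23 and -1.41, and of -1.82, -1.30 and -1.42 without A/J replicate 1. Signals from copies cannot be told apart for Rps3a1.

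**Figure D2:**
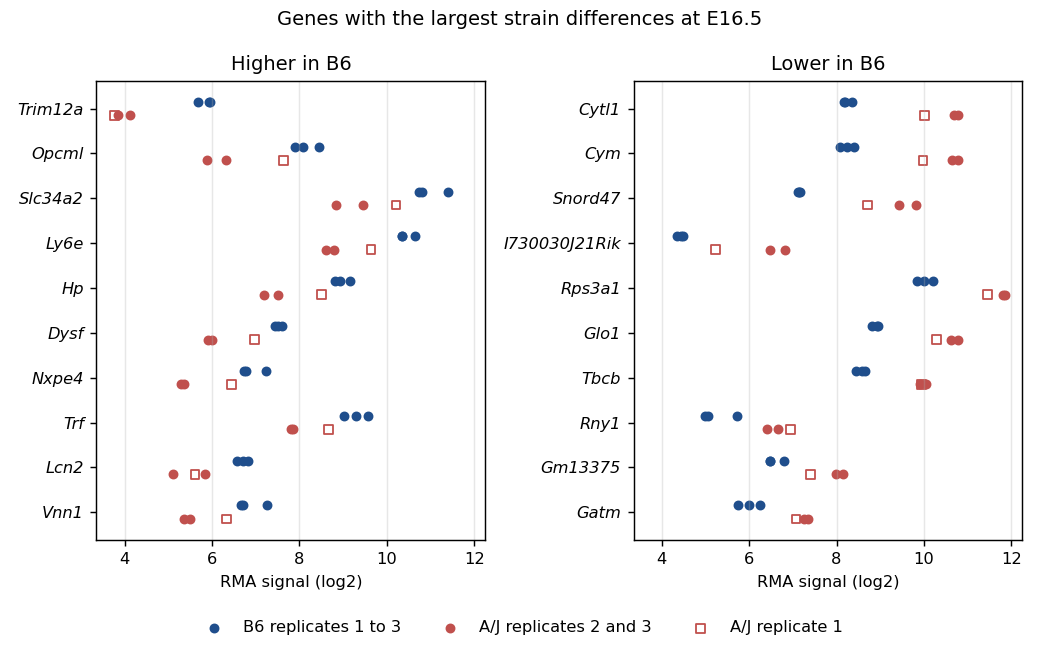
RMA signal (x axis, log2) of the 10 genes with the largest positive (left) and the 10 with the largest negative difference (right) among those called in both fits. Blue circles are B6 replicates, red circles A/J replicates 2 and 3, and the open square A/J replicate 1, which lies between the strains for Opcml and Dysf and with the other A/J replicates for Trim12a and Tbcb.

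Several genes of surfactant production were higher in B6 at E16.5, though most of the list was not called. Of 20 measured genes of surfactant proteins, surfactant lipids and lamellar bodies, 4 were called higher (Slc34a2, Lamp3, Sftpa1 and Sftpb) and 1 lower (Fabp5) with all replicates. Ctsh, a protease that processes surfactant proteins, joined them without A/J replicate 1, which made 5 higher and 1 lower. Calls over all probe sets were 0.587% higher and 0.592% lower with all replicates, and 1.02% and 0.872% without that array. The list's median difference was 0.33 with all replicates and 0.40 without A/J replicate 1, and 17 of 20 differences were above 0 in the second fit, where 50.8% of all probe sets were. By adjusted p alone, 9 were higher and 1 lower in either fit, where 3.26% of all probe sets were higher in either fit and 4.83% lower with all replicates (3.55% without A/J replicate 1).

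Slc34a2, the phosphate transporter of type II cells, read 10.80, 11.39 and 10.73 in B6 replicates 1 to 3 and 10.21, 9.45 and 8.84 in A/J replicates 1 to 3. Every B6 replicate lay above every A/J replicate, and A/J replicate 1 was the highest of its strain. The difference was 1.47 ± 0.25 (adjusted p = 0.000297), and 1.83 ± 0.24 without A/J replicate 1 (adjusted p = 6.44e-06). Lamp3, a lamellar body membrane protein, read 9.10, 9.61 and 9.11 in B6 and 8.87, 8.37 and 7.98 in A/J (0.87 ± 0.16, adjusted p = 0.00101, 1.098 without A/J replicate 1). Sftpa1, the innate defense collectin surfactant protein A, read 10.31, 10.82 and 10.36 in B6 and 10.09, 9.77 and 9.33 in A/J (0.77 ± 0.16, adjusted p = 0.00413, 0.95 without A/J replicate 1). Sftpb, needed for surfactant films, read 10.58, 11.06 and 10.74 in B6 and 10.40, 10.13 and 9.75 in A/J (0.70 ± 0.17, adjusted p = 0.00918, 0.85 without A/J replicate 1). B6 replicate 2 was the highest and A/J replicate 3 the lowest for all of these. Leaving out A/J replicate 3, the differences of Sftpa1 and Sftpb were 0.57 and 0.53, and without B6 replicate 2 they were 0.61 and 0.57. Sftpa1 and Sftpb were not called in those fits.

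Other genes of the list differed less. Sftpc was at 13.61 ± 0.09 in B6 and 13.48 ± 0.07 in A/J (SD, n = 3 each), with a difference of 0.13 that was not called. Abca3, the lipid pump of lamellar bodies, differed by 0.29 and Lpcat1, which makes surfactant phosphatidylcholine, by 0.28, neither called. Scd1 and Fasn, enzymes of fatty acid synthesis, differed by -0.13 and 0.10, not called. Fabp5, a fatty acid carrier, was the exception in direction, with 7.55, 7.44 and 7.42 in B6 and 8.19, 8.64 and 8.54 in A/J (-0.99 ± 0.11, adjusted p = 7e-07, -1.12 without A/J replicate 1).

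Promoters of 3 of the epithelial genes are shown because these mRNAs were higher in B6 at E16.5 and rose steeply with age. They are windows of 300 bases around the start, mostly before it, from RefSeq (GRCm38.p6): Slc34a2 at chr5:53049103-53049402 on the plus strand, Cxcl15 at chr5:90794284-90794583 on the plus strand, and Lamp3 at chr16:19706316-19706615 on the minus strand. Capitals mark matches to 4 short motifs, TTGCNNAA (bound by C/EBP factors), CACTTG (NKX2 factors) and TGTTTAC (FOX factors) on both strands, and TATAAA on the gene's strand.
Slc34a2: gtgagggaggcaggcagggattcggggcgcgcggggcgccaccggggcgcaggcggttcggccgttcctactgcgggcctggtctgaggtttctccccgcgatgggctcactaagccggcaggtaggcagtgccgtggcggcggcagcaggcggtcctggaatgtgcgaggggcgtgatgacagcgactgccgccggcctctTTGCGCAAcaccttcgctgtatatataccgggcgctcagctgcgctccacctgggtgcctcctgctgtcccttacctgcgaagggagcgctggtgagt
Cxcl15: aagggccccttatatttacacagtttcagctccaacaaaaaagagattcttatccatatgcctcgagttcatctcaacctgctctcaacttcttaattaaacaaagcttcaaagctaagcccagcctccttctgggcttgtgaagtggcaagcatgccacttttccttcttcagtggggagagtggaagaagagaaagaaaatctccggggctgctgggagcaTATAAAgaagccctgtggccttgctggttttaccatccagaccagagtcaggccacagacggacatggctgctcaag
Lamp3: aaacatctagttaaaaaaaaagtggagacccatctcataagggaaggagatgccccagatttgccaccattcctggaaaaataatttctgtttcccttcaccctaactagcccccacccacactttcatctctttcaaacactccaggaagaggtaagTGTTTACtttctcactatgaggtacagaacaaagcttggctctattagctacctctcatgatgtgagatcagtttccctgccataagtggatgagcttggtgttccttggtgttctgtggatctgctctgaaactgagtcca
The Slc34a2 window held TTGCGCAA at -48, which matches on both strands, Cxcl15 held TATAAA at -27, and Lamp3 held TGTTTAC at -92. No matches overlapped those of another motif. Of 32851 RefSeq promoter windows of this length, TTGCNNAA was in 10.8%, CACTTG in 13.6%, TGTTTAC in 3.65% and TATAAA in 8.32%. These are matches of letters in the reference sequence and say nothing of binding.

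A few markers of type I and club cells were called, each of them higher in B6. Over all probe sets, 0.587% were called higher with all replicates and 1.02% without A/J replicate 1. Of 14 type I cell markers, Aqp5, a water channel, was called higher with all replicates (0.61 ± 0.13, adjusted p = 0.00417, 0.66 without A/J replicate 1), and Clic5, a chloride channel protein, joined it without A/J replicate 1 (0.58). The call of Aqp5 was lost without A/J replicate 2 and without B6 replicate 2. The list's median was 0.24 with all replicates and 0.34 without A/J replicate 1. The type I marker Ager differed by 0.41 and Hopx by 0.03, neither called. Of 10 club and secretory cell markers, Scgb3a2 and Hp were called in both fits, with medians of 0.24 and 0.35. Scgb3a2, a secretoglobin of the airways, read 9.95, 9.95 and 9.76 in B6 and 9.61, 8.69 and 8.57 in A/J (0.93 ± 0.16, adjusted p = 0.000566, 1.26 without A/J replicate 1). Hp, which encodes the hemoglobin-binding protein haptoglobin, read 8.93, 9.16 and 8.82 in B6 and 8.51, 7.51 and 7.20 in A/J (1.23 ± 0.19, adjusted p = 8.78e-05, 1.61 without A/J replicate 1). Hp is also made by liver, whose markers were high in B6 replicate 1, and the part of liver RNA in its difference was not tested. The club cell secretory protein gene Scgb1a1 differed by 0.18, not called.

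Ciliated cell genes depended on A/J replicate 1. None of the 15 measured markers was called with all replicates, and Spag6l and Ccdc40 were called without it. Without A/J replicate 1, 1.02% of all probe sets were called higher. Spag6l, a protein of the ciliary axoneme, read 7.34, 7.33 and 7.18 in B6 and 7.42, 6.57 and 6.57 in A/J, so that A/J replicate 1 lay above every B6 replicate. By adjusted p alone, 5 of 15 were higher with all replicates and 8 of 15 without A/J replicate 1, where 3.26% of all probe sets were in either fit. The medians of the list were 0.32 and 0.42. Foxj1, the regulator of motile cilia, read 7.53 to 7.58 in B6 and 7.40 to 7.48 in A/J, a difference of 0.11 that was not called.

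Genes of fluid transport and defense were called in smaller numbers. Over all probe sets, 0.587% were called higher and 0.592% lower with all replicates, and 1.02% and 0.872% without A/J replicate 1. Of 13 ion and water transport genes, Aqp5 was called higher with all replicates, and Scnn1a, which forms part of the ENaC sodium channel, and Aqp1, a water channel, were added without A/J replicate 1. Cxcl15, lungkine, a chemokine of lung epithelium, read 10.17, 10.87 and 10.32 in B6 and 9.77, 9.33 and 8.86 in A/J (1.13 ± 0.16, adjusted p = 4.43e-05, 1.36 without A/J replicate 1). Of 16 innate defense and complement genes, Lcn2 and Hc were higher and Tnfsf10 lower with all replicates. Lcn2, an iron-binding antibacterial protein, read 6.70, 6.83 and 6.57 in B6 and 5.61, 5.85 and 5.11 in A/J (1.18 ± 0.19, adjusted p = 0.000215, 1.22 without A/J replicate 1). Tnfsf10, the death ligand TRAIL, read 7.10, 7.29 and 6.87 in B6 and 8.10, 8.32 and 8.33 in A/J (-1.16 ± 0.14, adjusted p = 2.19e-06, -1.24 without A/J replicate 1). The strains did not overlap for Cxcl15, Lcn2 and Tnfsf10, as for 36.5% of all probe sets. A/J replicate 1 stood with its own strain for Lcn2.

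Some granule genes of neutrophils were higher in B6. Of 12 measured, with a median difference of 0.18 (0.20 without A/J replicate 1), Lcn2, Ngp, S100a8 and Ltf were called with all replicates, and the first 3 without A/J replicate 1. Over all probe sets, 0.587% were called higher and 0.592% lower with all replicates, and 1.02% and 0.872% without A/J replicate 1. The difference of Lcn2 was 0.003, 1.30 and 2.05 at E15.5, E17.5 and E18.5. That of Ngp was 0.30, 0.17 and 0.21, and that of S100a8 0.16, 0.36 and 0.09. S100a8, a subunit of calprotectin, read 5.83, 5.49 and 5.59 in B6 and 4.89, 5.12 and 4.40 in A/J (0.83 ± 0.17, adjusted p = 0.0022, 0.88 without A/J replicate 1). The mean level of the 12 genes was 5.55 to 5.72 in B6 and 5.08 to 5.40 in A/J, under the lowest array median of 6.34. Among 16 macrophage and monocyte markers, none was called with all replicates and Cd68 was lower without A/J replicate 1. Rsad2, the antiviral enzyme viperin, was the single call of 21 interferon genes (-0.93 ± 0.20, -1.07 without A/J replicate 1), and B2m, the light chain of MHC class I, of 17 MHC genes (0.59 ± 0.10, 0.71 without A/J replicate 1). Msln, the mesothelial surface protein mesothelin, was higher in B6 by 0.77 ± 0.16 (adjusted p = 0.00283, 0.86 without A/J replicate 1), the single call of 8 mesothelial markers. Of 10 erythroid and globin genes, 7 had a difference below 0 without A/J replicate 1, and the median was -0.15 with all replicates and -0.18 without that array. Among them Hbb-y, an embryonic globin on chromosome 7, was higher by 0.997 ± 0.28 (adjusted p = 0.0243, 1.07 without A/J replicate 1), while Slc4a1, the anion exchanger of red cells, was lower without A/J replicate 1 (-0.87, adjusted p = 0.0427) and not called with all replicates (-0.68). Cpa3, the mast cell carboxypeptidase, was lower, at -0.86 (-1.22 without A/J replicate 1). These calls were fragile. Rsad2 lost its call without A/J replicate 3 and Msln without B6 replicate 2. Cpa3 lost it without either of these, Hbb-y without A/J replicate 2, A/J replicate 3 or B6 replicate 1, and B2m and Ltf without most single replicates.

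Muscle and proliferation genes lay lower in B6, mostly by less than the fold needed for a call. Over all probe sets, 0.592% were called lower with all replicates and 0.872% without A/J replicate 1. Of 12 smooth muscle and myofibroblast genes, Cnn1 (calponin) and Actg2 (enteric smooth muscle actin) were called lower, at -0.82 ± 0.21 and -0.62 ± 0.19 (adjusted p = 0.0146 and 0.0439, and -0.92 and -0.72 without A/J replicate 1), while Acta2 (-0.11) and Myh11 (-0.25) were not called. Cnn1 lost its call without A/J replicate 3 or B6 replicate 2. The call of Actg2 was lost when any 1 of A/J replicates 2 and 3 and B6 replicates 1 to 3 was left out. All 21 DNA replication genes had a difference below 0 without A/J replicate 1, where 49.2% of all probe sets did, with a median of -0.25. Only Orc1, the largest subunit of the origin recognition complex, passed the call (-0.90 ± 0.14, adjusted p = 0.000139, and -0.91 without A/J replicate 1), and 2 of 21 passed by adjusted p alone. The mean level of the 21 genes was 9.09 to 9.30 in B6 and 9.43 to 9.55 in A/J, without overlap. Of 24 cell cycle and mitosis genes, 22 had a difference below 0, with a median of -0.19, and Ttk, a kinase of the spindle checkpoint, was called lower without A/J replicate 1 (-0.70). Of 17 chromatin regulators, 16 had a difference below 0 and none was called in either fit, although 2 passed by adjusted p alone with all replicates and 1 without A/J replicate 1. By adjusted p alone, 4.83% of all probe sets were lower with all replicates and 3.55% without A/J replicate 1.

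Pathways of lung patterning had a count near the share called over all probe sets, 1.18% with all replicates and 1.89% without A/J replicate 1. None of 21 Notch, 19 FGF and Hedgehog and 22 TGF-beta and BMP pathway genes was called in either fit with limma. By adjusted p alone, none of the Notch genes passed in either fit, the TGF-beta and BMP genes Bmp4 (-0.34) and Bmp5 (-0.39) were lower in both fits, and Fgfr4 (-0.34) was lower without A/J replicate 1. Of 23 Wnt pathway genes, Sfrp2, a secreted Wnt inhibitor, was called lower without A/J replicate 1 (-0.66). Among 18 genes of the epithelial progenitors, Sox2, the airway progenitor factor, was lower (-0.58) and Krt18, a simple keratin, higher (0.73) without A/J replicate 1. Their differences with all replicates, -0.50 and 0.58, were under the fold needed. None of the endothelial, mesenchymal, hypoxia, immediate early or housekeeping genes was called in either fit, and the medians of these lists lay between -0.08 and 0.10. No marker of heart, skeletal muscle, esophagus, cartilage, nerve or thymus was called.

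**Figure D3:**
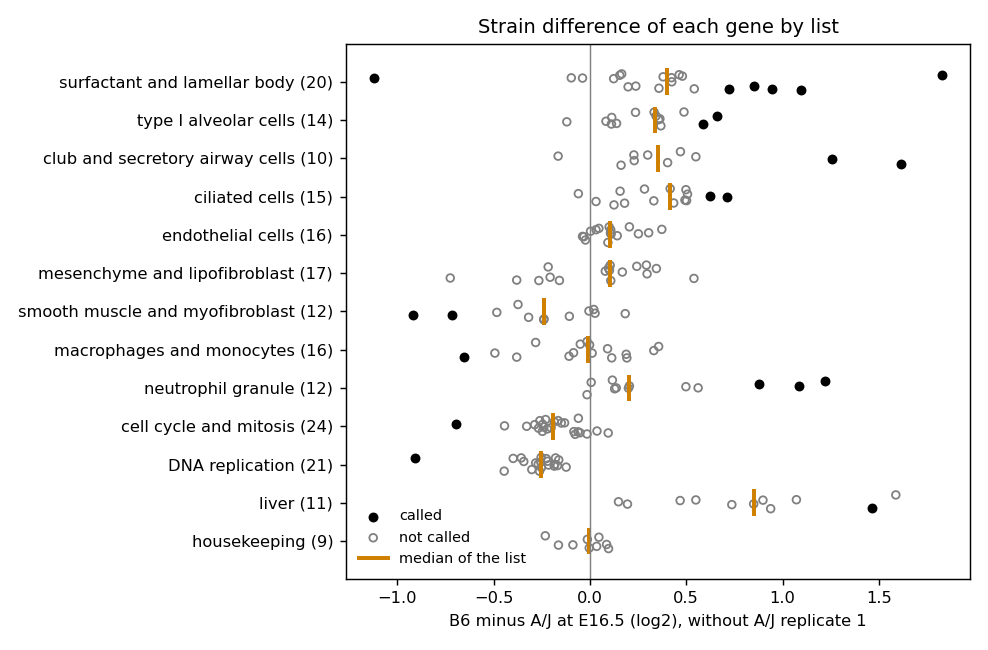
Difference of each measured gene between B6 and A/J at E16.5 (x axis, log2, without A/J replicate 1) for 13 lists, with the number of genes in brackets. Filled circles are called genes, open circles others, and bars list medians, which lie at 0.40 for surfactant genes and at -0.25 for DNA replication genes.

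Genes higher in B6 at E16.5 were often those that rise with age. The change between E15.5 and E17.5 was measured in A/J arrays that take no part in the E16.5 comparison. Of the 222 probe sets higher in B6 without A/J replicate 1, 129 (58.1%) rose with age in A/J and 6 fell, where 7.45% of all probe sets rose. Of the 190 lower in B6, 63 (33.2%) fell with age in A/J and 15 rose, where 7.07% of all fell. With all replicates, 70 of 128 (54.7%) rose and 51 of 129 (39.5%) fell. Rises in both strains were seen for 124 of the 222 (55.9%), against 4.99% of all probe sets. Slc34a2, Hp, Lamp3 and Cxcl15 rose in A/J by 4.75, 3.36, 3.08 and 2.88 on the log2 scale between those ages. Trim12a and Cytl1, with larger strain differences, changed by -0.04 and -0.69.

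**Figure D4:**
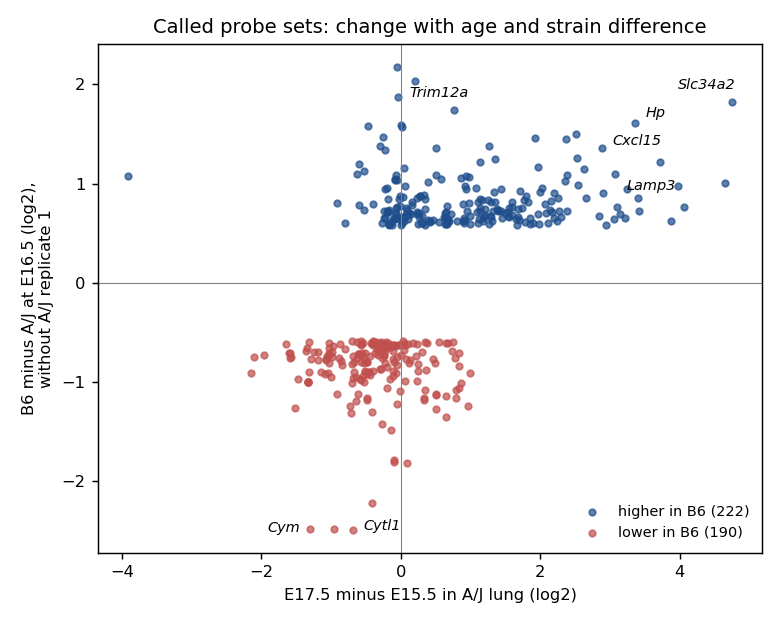
Change between E15.5 and E17.5 in A/J lung (x axis, log2) and difference between B6 and A/J at E16.5 (y axis, log2, without A/J replicate 1) for the 412 called probe sets. Blue points are the 222 higher in B6, of which 129 rose with age, and red points the 190 lower, of which 63 fell.

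Each E16.5 array was also placed between E15.5 and E17.5 over 1068 probe sets that changed at least 2-fold between these ages in A/J. With 0 for the A/J mean at E15.5 and 1 for that at E17.5, the B6 replicates lay at 0.523, 0.607 and 0.474 and the A/J replicates at 0.423, 0.363 and 0.288. Every B6 array was further along than every A/J array, and A/J replicate 3 was the least far. The means were 0.535 ± 0.0673 and 0.358 ± 0.0676 (SD, n = 3 each), a difference of 0.177 with a two-sided exact permutation p of 0.1, the smallest that 3 against 3 litters allow. The difference was 0.209 without A/J replicate 1 (exact permutation p = 0.1, also the smallest possible). On the axis from B6, with 877 probe sets, the difference was 0.212, and 0.247 without A/J replicate 1. Falling probe sets alone gave 0.507 in B6 and 0.254 in A/J, and rising ones 0.544 in B6 and 0.395 in A/J, with differences of 0.257 and 0.192 without A/J replicate 1. Strain and the exact stage reached by these litters cannot be told apart at a single labelled age. Between E15.5 and E16.5, 650 probe sets (2.98%) changed in B6 and 383 (1.76%) in A/J, or 293 without A/J replicate 1. Between E16.5 and E17.5, 670 (3.07%) changed in B6 and 1748 (8.02%) in A/J, or 1835 without that array.

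Whether the strain difference at E16.5 departed from the neighbouring ages was tested as the difference at E16.5 minus the mean of those at E15.5 and E17.5. With all replicates, limma called 0 probe sets, and 0 without moderation of variances, while 1680 had an unadjusted p under 0.05. Without A/J replicate 1 it called 6 (0.0275%), 5 with a more positive difference at E16.5 (0.0229%) and 1 with a more negative one (0.00459%). The calls higher at E16.5 were Slc34a2 (1.73 ± 0.28, adjusted p = 0.00839), Cxcl15 (1.07 ± 0.19), Hp (1.06 ± 0.17), Dnah3 (0.88 ± 0.15) and Sec14l3 (0.83 ± 0.16). The Dnah3 value is from a probe set that is not its brightest, and no other Dnah3 probe set was called in this contrast. The RIKEN transcript I730030J21Rik was lower (-1.54 ± 0.19, adjusted p = 0.000135). All 6 rest on A/J replicates 2 and 3 alone. I730030J21Rik read 4.49, 4.35 and 4.43 in B6 and 5.22, 6.47 and 6.82 in A/J, and lay between 4.95 and 5.63 in A/J at E15.5 and E17.5, so A/J replicates 2 and 3 stood above both ages and A/J replicate 1 did not.

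The course of Slc34a2 is given by age. At E15.5 Slc34a2 was at 7.02 ± 0.53 in B6 and 7.27 ± 0.63 in A/J (SD, n = 3 litters each, here and at the other ages). The next day it was at 10.97 ± 0.36 in B6 and 9.50 ± 0.69 in A/J. It reached 12.47 ± 0.15 in B6 and 12.02 ± 0.04 in A/J by E17.5, then 12.98 ± 0.04 in B6 and 12.48 ± 0.15 in A/J by E18.5. The strains overlapped at E15.5 and not at the later ages, but the differences of 0.45 at E17.5 (adjusted p = 0.233) and 0.50 at E18.5 (adjusted p = 0.121) were not called. Lamp3 had differences of -0.07, 0.87, 0.44 and 0.97 at the 4 ages in order. Against E15.5 alone, 15 probe sets were called without A/J replicate 1 (0.0688%), 10 more positive at E16.5 (0.0459%) and 5 more negative (0.0229%), and 0 with all replicates by limma, where 1903 had an unadjusted p under 0.05. Among the 15 were Slc34a2, Cxcl15, Hp, Lamp3, Sftpa1, Lgals3, a galactose-binding lectin, and Cbr2, a carbonyl reductase of the airways, all with a more positive difference at E16.5.

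Against E17.5, 28 probe sets were called with all replicates (0.129%), 21 with a more positive (0.0964%) and 7 with a more negative difference (0.0321%) at E16.5. Leaving out A/J replicate 1, 56 (0.257%) were called, 45 more positive (0.207%) and 11 more negative (0.0505%). Ciliated cell genes were among them. Of the 15 ciliated markers, Ccdc40, Spag6l, Ak7 and Ccno had a more positive difference at E16.5 by adjusted p alone without A/J replicate 1, where 0.225% of all probe sets did, and Ccno with all replicates, where 0.115% did. Ccno itself read 7.10 to 7.27 in B6 and 7.14 to 7.29 in A/J at E16.5 and differed by -0.80 at E17.5. Dnah3, an axonemal dynein heavy chain, had 2 of its 33 probe sets called here without A/J replicate 1 and none with all replicates. The first read 6.50, 6.64 and 6.68 in B6 and 6.47, 5.73 and 5.67 in A/J at E16.5. The second read 6.50, 6.81 and 6.64 in B6 and 6.57, 6.28 and 5.67 in A/J, which overlap, and its strain difference of 0.48 at E16.5 was not called with all replicates. At E17.5 the first was at 7.45 ± 0.16 in B6 and 7.62 ± 0.07 in A/J, and at E18.5 at 8.02 ± 0.18 and 8.55 ± 0.05. On that probe set B6 was higher at E16.5 and had the lower values at E18.5. Hopx, a homeobox-like factor of type I cells, differed by 0.03 at E16.5 and -0.68 at E17.5. In the other direction stood Scd1, with differences of -0.13 at E16.5 and 1.77 at E17.5, and Rtkn2, a type I cell gene, with 0.22 and 1.78, both called with all replicates. Dnah3, Hopx, Scd1 and Rtkn2 are given here after their values were seen.

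**Figure D5:**
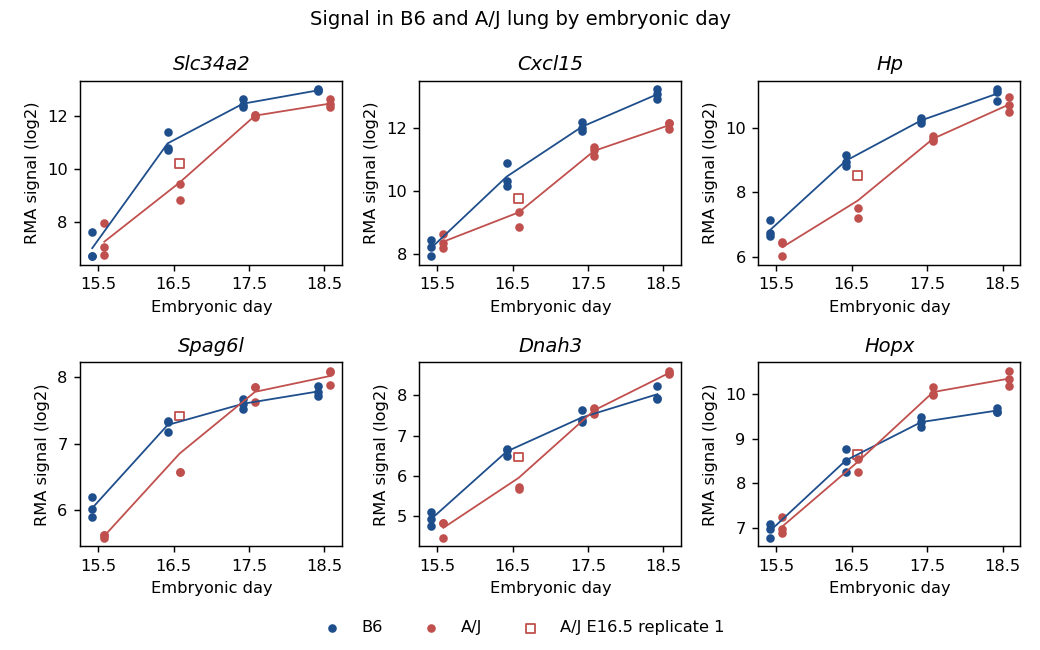
RMA signal (y axis, log2) of 6 genes by embryonic day (x axis) in B6 (blue) and A/J (red) lung. Points are litters, lines join means, and the open square is A/J replicate 1 at E16.5. Dnah3 is shown by a probe set that is not its brightest. Slc34a2, Cxcl15 and Hp are higher in B6 at E16.5, Spag6l and Dnah3 have the higher mean in B6 at E16.5, with A/J replicate 1 near the B6 values, and in A/J at E18.5, and Hopx overlaps at E16.5 and is higher in A/J from E17.5.

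Small nucleolar RNA genes were called lower in B6 more often than higher. Of 56 probe sets of small nucleolar RNA genes, which guide the modification of ribosomal RNA, 1 was higher and 6 lower with all replicates, and 1 and 17 without A/J replicate 1. Over all probe sets, 0.587% were called higher and 0.592% lower with all replicates, and 1.02% and 0.872% without that array. The median difference of the 56 was -0.38 and -0.55 in the 2 fits. Snord47 read 7.12, 7.14 and 7.16 in B6 and 8.70, 9.43 and 9.81 in A/J (-2.17 ± 0.20, adjusted p = 7.22e-09, -2.48 without A/J replicate 1). Snord53 was the 1 called higher, with 6.35, 6.30 and 6.67 in B6 and 6.09, 5.20 and 5.49 in A/J (0.85 ± 0.17, adjusted p = 0.00307, 1.095 without A/J replicate 1). The host transcript of Snord47, Gas5, was higher in B6 on its brightest probe set (0.65, and 0.80 without A/J replicate 1, both called) and differed by -0.19 to 0.05 on its other 3, so that its probe sets disagreed.

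Of 296 microRNA gene probe sets, 1 was higher and 1 lower with all replicates, where 1.18% of all probe sets were called. Without A/J replicate 1 the counts were 1 and 8, where 1.89% of all probe sets were called. The median difference of the 296 was 0.0083 with all replicates and -0.005 without that array. Among the 8 were Mir18, Mir19a and Mir20a of the Mir17 cluster on chromosome 14, a polycistron known for driving growth of the embryonic lung epithelium. Their mature forms, at chr14:115043867-115043889, chr14:115044048-115044070 and chr14:115044183-115044205 on the plus strand (RefSeq, GRCm38.p6), are shown because these 3 neighbours lay lower together, with the seed, bases 2 to 8, in capitals.
mmu-miR-18a-5p: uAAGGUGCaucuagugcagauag
mmu-miR-19a-3p: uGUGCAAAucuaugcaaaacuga
mmu-miR-20a-5p: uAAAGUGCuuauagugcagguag
The 3 seeds differ from one another. Mir18 read 5.40, 5.98 and 5.85 in B6 and 5.48, 6.62 and 6.88 in A/J, with A/J replicate 1 among the B6 values, and its difference was -0.58 ± 0.27 with all replicates (not called) and -1.01 ± 0.25 without A/J replicate 1 (adjusted p = 0.0131). Mir19a and Mir20a differed by -0.95 and -0.94 without that array. Signals of Mir19a and Mir20a lay between 4.30 and 5.85 in the E16.5 arrays, under the lowest array median of 6.34. Of the 5 probe sets of the cluster, none was called with all replicates, where the median was -0.58. The array does not separate precursor from mature microRNA here.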

How the data were processed

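Whole-lung RNA was hybridised to Affymetrix Mouse Gene 1.0 ST arrays. The authors deposited log2 values computed with RMA in Affymetrix Expression Console 1.1, per the labels' processing notes, for 35556 probe sets on 37 arrays. RMA removes background, normalises quantiles over arrays and summarises probes. Every array thus has nearly the same distribution, and a change of total RNA cannot be seen. Genes were named from the platform annotation, which gives 1 symbol for 21789 probe sets, several for 1621 and none for 12146. A total of 21698 of the 21789 matched the RefSeq gene table (GRCm38.p6). The files name no build, and gene chromosomes are those of that table.

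B6 E18.5 arrays 2 and 2b were averaged, which left 36 replicates in 12 groups. limma 3.58.1 in R 4.3.3 fitted 1 mean per group with moderated variances (24 residual degrees of freedom, 23 without A/J replicate 1), so the E16.5 comparison borrows its spread from all groups. The study analysed its arrays with a Bayesian time-series method (BATS), with EDGE and with two-way ANOVA of strain and time. None of these was run here, and a fit without moderation was tried as an alternative. A gene with several probe sets is represented by the brightest. The number of arrays limits the precision. Replicates are litters of a single laboratory. The p-values set each difference against the spread between litters within groups, pooled over the 12 groups. The fit was also run on simulated data with independent noise. Those data held no replicate shifted towards the other strain, so they could not test the effect of A/J replicate 1. Tables and figures used Python 3.11.

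Genes were named by rule: the 10 largest differences each way called in both fits, all genes of the surfactant and known-allele lists, up to 4 called (or the 2 of smallest p) of each other list, the 5 largest each way called only without A/J replicate 1, and the 5 largest each way in the contrast with E15.5 and E17.5. Members, lists and tests were chosen with earlier results of these data known. Genes outside the rule, such as Polr3e, Col4a6, Alb, Dnah3, Hopx, Scd1 and Rtkn2, were named after their values were seen. Alternatives covered leaving out each replicate, the arrays in the model, pairing, scaling, probe sets, filters, moderation, weights and thresholds.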

Additional observations from a re-analysis of the deposited data

Results flagged for a closer look

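The strain difference at E16.5 was tested against the mean of those at E15.5 and E17.5 in the fit without A/J replicate 1, and the difference between times was called for 6 probe sets. It was 1.73 on the log2 scale for Slc34a2, 1.07 for Cxcl15, 1.06 for Hp, 0.88 for Dnah3, 0.83 for Sec14l3 and -1.54 for I730030J21Rik. The Dnah3 value is from a probe set that is not its brightest, and no other Dnah3 probe set was called. With all replicates none of the 6 was called.

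Probe sets without exactly 1 gene symbol took no part in the comparisons. Of 13767 such probe sets, 298 (2.16%) were called between B6 and A/J at E16.5, and 364 without A/J replicate 1.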

How the results depend on the processing

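Only 3 litters a strain were measured, and A/J replicate 1 sets much of what was called. Leaving out 1 replicate gave 155 (without A/J replicate 3) to 412 called probe sets (without A/J replicate 1), against 257, and 207 (without A/J replicate 3) to 581 (without A/J replicate 2) where A/J replicate 1 was left out as well, against 412. The contrast of E16.5 with E15.5 and E17.5 gave 0 to 6 calls, the 6 without A/J replicate 1. Without A/J replicate 1 and B6 replicate 1, an alternative added after seeing the data, 408 were called. Testing all 35556 probe sets gave 544 calls (751 without A/J replicate 1), a fold of 2 gave 40 (78), and no fold limit 1763 (1485). Other scalings, filters, moderation, weights and arrays in the model kept both counts within 1.5 times. The labels do not say that equal replicate numbers mark anything shared. With the replicate number as a block, 256 probe sets were called (384 without A/J replicate 1), and 244 with the 6 arrays alone. Deviations of equal numbers correlated at -0.03, 0.16 and 0.11 at E16.5 and at 0.26, 0.21 and 0.37 at E15.5, where unequal numbers reached at most 0.10, but at -0.14, -0.27 and -0.11 at E17.5, so no pairing held over the ages. Over 133 named genes and 20 settings no call turned its direction, with 80 calls lost and 94 gained. Another 6 results were classed apart from those kept, lost or gained, all of them with a single replicate left out. Of the 80 lost, 23 came from a fold of 2 and 13 from leaving out A/J replicate 3, among them Trf, Sftpa1, Sftpb, Cpa3 and Rsad2. The position of A/J replicate 1 between the strains, 0.402, was 0.573 on the E15.5 calls, 0.491 on the E17.5 calls and 0.187 on the E18.5 calls. The causes were not tested.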

Other observations

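Of 20 measured glutathione and xenobiotic genes, 1 was called higher and 1 lower at E16.5 with all replicates. Over all probe sets, 0.587% were called higher and 0.592% lower, and the median difference of the list was -0.07. Fmo2, a flavin monooxygenase abundant in lung, was higher in B6, with 10.55, 10.80 and 10.41 against 10.17, 9.84 and 9.39 in A/J (0.79 ± 0.17, limma adjusted p = 0.00397, 0.97 without A/J replicate 1). Gsta4, a glutathione transferase of lipid aldehydes, was lower, with 9.75, 9.66 and 9.54 in B6 and 10.09, 10.35 and 10.32 in A/J (-0.60 ± 0.08, adjusted p = 2.48e-05, -0.69 without A/J replicate 1). Both lost their call without A/J replicate 3, and Gsta4 also without A/J replicate 2 or B6 replicate 3. Without A/J replicate 1, 3 of the 20 were higher and 1 lower, where 1.02% and 0.872% of all probe sets were. Hmox1, heme oxygenase 1, which lies outside the naming rule, was lower in B6 at E16.5 by 0.99 on the log2 scale (adjusted p = 3.17e-05; -1.26 without A/J replicate 1) and differed by -1.33 at E15.5 and by -0.29 at E17.5.

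Hsd11b1, which regenerates active glucocorticoid inside cells, was the single call of 13 genes of the glucocorticoid response, with 8.08, 8.24 and 7.63 in B6 and 7.63, 7.55 and 6.88 in A/J (0.63 ± 0.18, adjusted p = 0.0249, 0.77 without A/J replicate 1). The strains met at 7.63, and the call was lost without any 1 of A/J replicate 3, B6 replicate 1 and B6 replicate 2. At E15.5 and E17.5 the differences of Hsd11b1 were -0.06 and -0.27. Over all probe sets, 0.587% were called higher at E16.5 with all replicates and 1.02% without A/J replicate 1.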
